A study of Mus musculus with 24 samples.

Results

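The transcripts described here are the mRNAs of 6 genes of the mouse mitochondrial genome. They encode cytochrome c oxidase subunits 1, 2 and 3 (COX1, COX2 and COX3), cytochrome b (CYTB) and ATP synthase subunits 6 and 8 (ATP6 and ATP8). The array annotation writes the oxidase genes as COXI, COXII and COXIII and cytochrome b as CytB. They were measured by 9 of the 46116 probes of an Illumina Mouse-6 bead array, and the probes were taken by name or gene number. Of the 9 probes, 6 carried a mitochondrial gene name in the probe annotation, 1 for each gene. The other 3 carried a padded NCBI gene number that the GRCm38.p6 RefSeq table assigned to COX2, CYTB or ATP6. These 3 genes therefore had a pair of probes, and each pair is distinguished below as the brighter and the dimmer probe on the kidney arrays.

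Total RNA came from kidney and testis of mice that were kept for 485 days either without irradiation or under γ-rays of a 137Cs source switched on for 22 h per day. The low group received 0.032 μGy/min and 21 mGy in all, the mid group 0.65 μGy/min and 420 mGy, and the high group 13 μGy/min and 8000 mGy. The labels describe 12 mice, 3 per group, killed when irradiation ended, and each tissue had 12 arrays, 3 per group. The sources used here name neither strain nor age at the start, and no label ties a kidney array to a testis array.

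Mitochondrial DNA is transcribed into long precursors that are cut at the tRNA genes into separate mRNAs. COX1, COX2 and COX3 form the core of complex IV, which passes electrons to oxygen, and CYTB is the subunit of complex III that the mitochondrial genome encodes. ATP6 forms part of the proton channel of ATP synthase, and ATP8 belongs to its stator. Kidney tubules and male germ cells both rely on these complexes for ATP. In the GRCm38.p6 annotation COX1, COX2, ATP8, ATP6 and COX3 follow one another, with nothing but tRNA genes between any of them. The ATP8 and ATP6 coding regions overlap there and are known to share an mRNA, while CYTB lies farther along, beyond genes of complex I. The table also lists a nuclear pseudogene named after ATP6, Gm10925 on chromosome 1, and whether a probe also binds RNA of such nuclear copies was not tested.

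The probe identifiers were 105860324 for COX1, 104200670 for COX2 (brighter), 100870717 for COX2 (dimmer) and 100070450 for COX3. CYTB was read by 104610446 (brighter) and 102100435 (dimmer), ATP6 by 106350132 (brighter) and 103140731 (dimmer), and ATP8 by 104780438. The annotation gave no position for them, so where in its transcript each probe binds is not given here. All 9 probes had a detection score of 1 on every kidney array, and each signal averaged 25 to 55 beads with a bead SD of 0.969% to 5.22% of the signal. The median SD among the 3 arrays of a group was 8.39% of the mean in kidney and 6.86% in testis. All 9 passed the filter on low values in both tissues.

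The 12 kidney and 12 testis arrays correlated within groups at r = 0.978 to 0.995 (kidney) and 0.921 to 0.934 (testis) on the log2 scale. Nephron markers fitted the kidney label, with 6 of 12 symbols measured and a summed signal of 39826 to 52355 in kidney against 36 to 318 in testis. The germ cell marker that could be measured, Prm2 (1 of 12 on its list), read 48244 to 72515 in testis and 0 to 41 in kidney. The kidney arrays split by group in their hybridization controls. The mismatch controls read 6.13% ± 0.61 of the perfect-match signal in the control group and 5.64% ± 0.51 in the low group, against 8.69% ± 0.19 in the mid and 8.29% ± 0.82 in the high group (SD, n = 3). The high-stringency controls read 62757 to 64383 in the control group and 54705 to 55767 in the high group. The sources used here do not say which arrays shared a bead chip, and the part of this split in the results below was not tested. High replicate 2 gave the brightest kidney signal for all 9 probes, and together with control replicate 2 and low replicate 2 it had the lowest mean correlation with the other kidney arrays (0.98 each).

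In kidney, COX2 was the 1 gene of the 6 with a called difference from control. Its dimmer probe was higher in the high group than in the control group by 0.68 ± 0.12 on the log2 scale (a 1.6-fold difference) and passed the threshold (limma, adjusted p = 0.0492). It was the 1 member of 9 called in that comparison, where 0.504% of all probes were called. No other comparison between kidney groups called a member. The brighter COX2 probe, the dimmer ATP6 probe and ATP8 had differences of 0.41 to 0.54 in the same comparison and did not pass. COX1, COX3 and CYTB differed by at most 0.08 in size.

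COX2 carries the copper centre that takes electrons from cytochrome c. The dimmer COX2 probe had deposited kidney signals of 7288, 7095 and 7420 in the control group and 8185, 7960 and 7533 in the low group. The mid arrays read 10276, 10389 and 10738, and the high arrays 9809, 13897 and 12424. All 6 arrays of the mid and high groups were above all 6 of the control and low groups, and low was also above control without overlap, although the normalized values of low and control overlapped. The summed macrophage markers were also higher in the low group (4458 to 7364) than in the control group (2873 to 3761) without overlap, and their part was not tested. Group means were 7268 ± 163 (control), 7893 ± 331 (low), 10468 ± 241 (mid) and 12043 ± 2070.4 (high; SD, n = 3). Mid exceeded control by 0.64 ± 0.12 on the log2 scale (limma, adjusted p = 0.0709), and high exceeded mid by 0.04 ± 0.12. The mid and high groups overlapped, so the order between them is not settled.

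The call for the dimmer COX2 probe was a narrow one. Its difference between high and control stayed positive in all 21 alternatives, from 0.53 to 0.83, but the adjusted p was under 0.05 in 3 of them. It was 0.0492 on the deposited signals with no further scaling, 0.0235 with an intensity trend and robust variances, and 0.0159 without high replicate 1. It rose to 0.0787 without high replicate 2, 0.217 without high replicate 3 and 0.143 without control replicate 3.

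The brighter COX2 probe read 18557, 15520 and 15048 on the control arrays and 18639, 15088 and 15766 on the low arrays. It read 20183, 18288 and 18423 on the mid arrays and 19220, 28853 and 24943 on the high arrays. Every high array was above every control array, although high replicate 1, at 19220, was close to the 18557 of control replicate 2. The mid arrays overlapped the control arrays on deposited signals, although all normalized mid values were above those of control. The log2 differences from control were 0.06 ± 0.12 (low), 0.35 ± 0.12 (mid, adjusted p = 0.254) and 0.54 ± 0.12 (high, adjusted p = 0.0861). With trend and robust variances the high difference had an adjusted p of 0.0459 (0.761% of all probes called in that fit), and without high replicate 1 it was 0.67 ± 0.11 (adjusted p = 0.0447).

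COX1, the subunit that holds the site where oxygen is reduced, had no called difference in kidney. Its signals were 13664, 15046 and 13679 (control), 13895, 11557 and 14748 (low), 14900, 16184 and 15354 (mid), and 13902, 16716 and 14104 (high). On deposited signals the groups overlapped in each comparison with control, while every mid array was above every low array. On normalized values every mid array was also above every control array. The log2 differences from control were -0.05 ± 0.09 (low), 0.25 ± 0.09 (mid, adjusted p = 0.279) and 0.03 ± 0.09 (high). The mid difference shrank to 0.07 under median scaling of the arrays.

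COX3, which completes the mitochondrially encoded core of complex IV, read 51283, 49391 and 45531 on the control arrays and 55144, 47601 and 53165 on the low arrays. It read 54456, 53257 and 47136 on the mid arrays and 49862, 62255 and 57539 on the high arrays. All 4 groups overlapped. On the normalized scale COX3 differed from control by 0.04 ± 0.05 (low), 0.02 ± 0.05 (mid) and 0.01 ± 0.05 (high). These normalized values carry a limit of their own. COX3 was 3rd to 7th brightest of all probes on every kidney array, and both CYTB probes and the brighter ATP6 probe ranked between 8th and 14th. Quantile normalization replaces such values by a reference that depends on rank alone, so an increase that leaves the rank unchanged disappears. On the deposited signals without that step, COX3 in the high group exceeded control by 0.21 on the log2 scale (adjusted p = 0.583), and by 0.17 under median scaling.

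**Figure D1:**
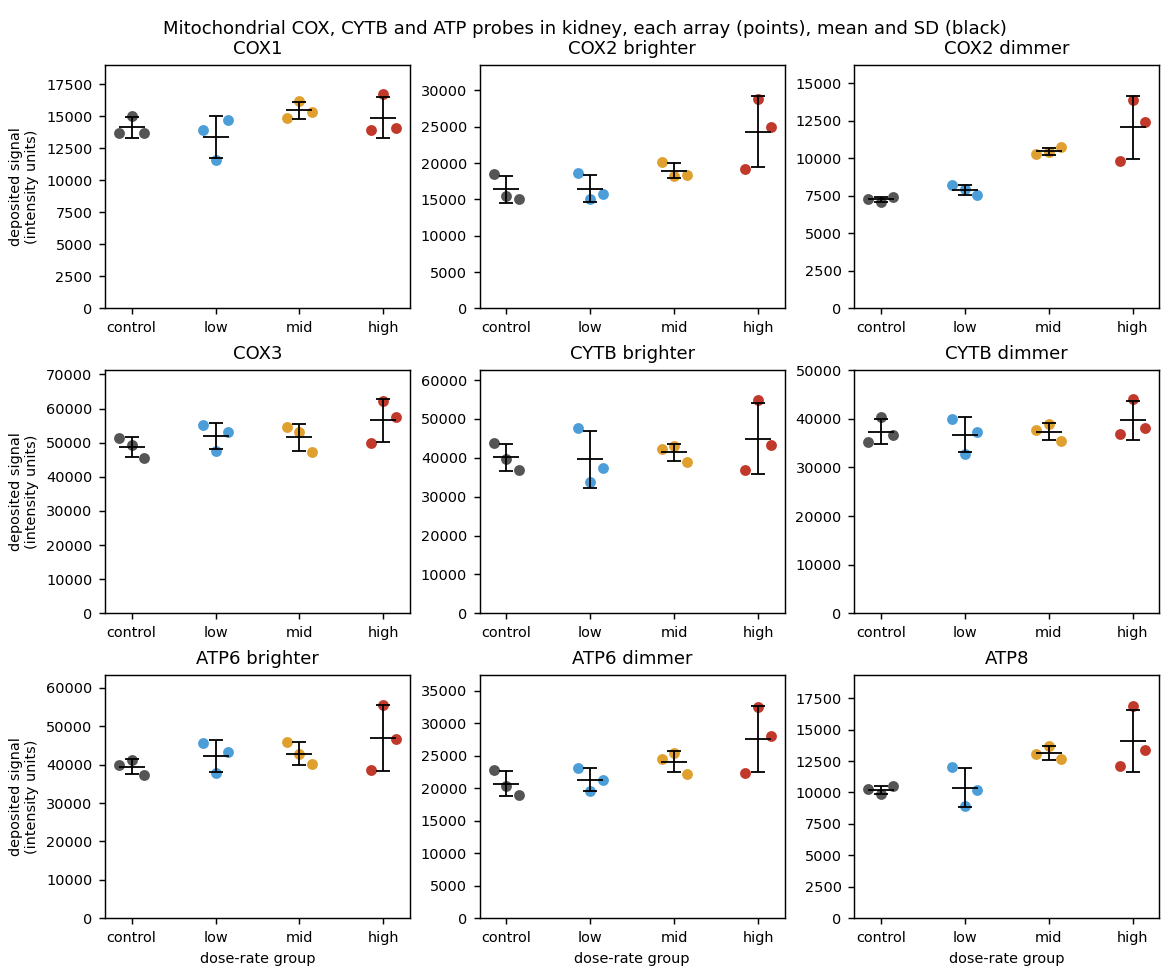
Deposited kidney signal (intensity units, linear axis from 0) of each of the 9 probes by dose-rate group. Points are single arrays and black marks the mean and SD of 3 arrays. The dimmer COX2 probe and ATP8 lie higher in the mid and high groups than in the control group with no overlap, whereas COX3, CYTB and the brighter ATP6 probe overlap across groups.

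CYTB, which moves electrons within complex III, showed no called difference in kidney. The brighter probe read 43720, 39626 and 36960 (control), 47679, 33679 and 37369 (low), 42248, 43153 and 38908 (mid), and 36814, 54758 and 43256 (high). The groups overlapped throughout, and the spread was widest in the high group. Its normalized differences from control were -0.06 ± 0.09 (low), 0.06 ± 0.09 (mid) and 0.00 ± 0.09 (high), and the high difference was 0.15 on deposited signals. The dimmer CYTB probe ranged from 32870 to 44123 over the 12 arrays, with normalized differences of -0.10 to 0.02. Its high difference was -0.08 ± 0.08 normalized and 0.08 on deposited signals, so its sign depended on the scaling and no direction is given.

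No ATP synthase probe was called in kidney, although ATP8 was separated from control in the mid and high groups. ATP8 read 10286, 9844 and 10507 on the control arrays and 11990, 8956 and 10208 on the low arrays. The mid arrays read 13078, 13713 and 12630, and the high arrays 12112, 16871 and 13352. All 6 arrays of the mid and high groups were above all 6 of the control and low groups. The log2 differences from control were 0.05 ± 0.11 (low), 0.49 ± 0.11 (mid, adjusted p = 0.111) and 0.43 ± 0.11 (high, adjusted p = 0.129). ATP8 passed the threshold between mid and control once the 3 arrays of lowest correlation were left out, a setting chosen after seeing the data (0.44 ± 0.08, adjusted p = 0.0390). In that setting 1.9% of all probes were called for mid against control.

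The brighter ATP6 probe read 39907, 41192 and 37284 (control), 45749, 37746 and 43269 (low), 45891, 42713 and 40052 (mid), and 38539, 55647 and 46626 (high). The groups overlapped, and the normalized differences from control were 0.06 ± 0.07 (low), 0.06 ± 0.07 (mid) and 0.10 ± 0.07 (high). The equal values for low and mid are an effect of the fixed ranks described above, and the deposited signals gave 0.10, 0.12 and 0.24. The dimmer ATP6 probe ranged from 19029 to 22821 in the control group, 19557 to 23096 in the low, 22265 to 25446 in the mid and 22304 to 32505 in the high group. These deposited ranges overlap control, although on normalized values the mid and high arrays were above all control arrays. Its log2 differences were 0.07 ± 0.09 (low), 0.36 ± 0.09 (mid, adjusted p = 0.127) and 0.41 ± 0.09 (high, adjusted p = 0.0818).

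Set against all kidney probes, the members sat above the middle in the mid and high groups. The median of the 9 log2 differences was 0.05 (low), 0.25 (mid) and 0.10 (high), against -0.01, -0.01 and 0.00 over all 10903 probes tested. The order of mid and high depended on the scaling, since the mid and high medians were 0.13 and 0.24 on deposited signals and 0.07 and 0.20 under median scaling (all probes -0.05 and -0.01 there). The differences were above 0 for 6 of 9 members in the low group, 9 of 9 in the mid and 7 of 9 in the high group, where 47.5%, 47.4% and 48.8% of all probes were. Under median scaling those counts were 4, 7 and 9 of 9, where 45.8%, 42.1% and 48% of all probes were, and both CYTB probes were below 0 in the mid group. Before adjustment, 0, 5 and 4 of 9 members had p under 0.05, where 8.34%, 13.6% and 11.9% of all probes did. Deposited signals were higher than control without overlap for 1 of 9 members in the low group, 2 of 9 in the mid and 3 of 9 in the high group. Over all probes tested those shares were 6.23%, 10.9% and 8.4%. On normalized values the counts were 0 of 9 (low), 5 of 9 (mid) and 4 of 9 (high), with 5.73%, 9.67% and 6.46% of all probes. Between the irradiated groups, deposited signals were higher without overlap for 3 of 9 in mid against low and 3 of 9 in high against low. They were so for 0 of 9 in high against mid, and the shares of all probes were 11.9%, 9.79% and 9.38%. On normalized values those counts were 4, 2 and 0 of 9 (12.6%, 9.43% and 7.9% of all probes). No member had deposited signals lower than control without overlap in any group (backgrounds 5.01%, 9.78% and 5.27%).

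The counts of called kidney members were 0 of 9 for low against control and for mid against control, where 0% and 0.312% of all probes were called. They were also 0 of 9 between the irradiated groups, where 0.651% (mid against low), 0.743% (high against low) and 0.0275% (high against mid) of probes were called. Before adjustment, 5 members (mid against low), 4 (high against low) and 1 (high against mid) had p under 0.05, where 13.8%, 11.9% and 8.47% of all probes did. The last of these was COX1, at -0.22 ± 0.09 for high against mid, which was -0.06 on deposited signals and -0.03 under median scaling. The moderated F test across the 4 groups called 0 of 9 (0.578% of all probes), with the dimmer COX2 probe nearest to the threshold at adjusted p = 0.0537 and 5 of 9 members under 0.05 before adjustment (15% of all probes). With trend and robust variances it called 2 of 9 (1.26% of all probes). In the mid group the summed nephron markers were 39826 to 44323, below the 47221 to 52355 of the control arrays, and 43588 to 50524 in the high group. Their part in the mid result was not tested, and in bulk tissue fewer cells of a type and less RNA per cell cannot be told apart.

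In testis, no member was called in any group by the fit used throughout, and all 9 lay above control in each irradiated group after normalization (50.1%, 47.6% and 49.7% of all probes did in the low, mid and high groups). On deposited signals COX3 and the dimmer CYTB probe in the low group and the brighter ATP6 probe in the mid group were at -0.06 to 0.00 instead. In the high group COX1, COX2, ATP8 and the dimmer ATP6 probe had log2 differences of 0.50 to 0.62, with limma adjusted p values of 0.270 to 0.349. In the mid group COX2, ATP8 and the dimmer ATP6 probe had differences of 0.43 to 0.67, while COX1, COX3, CYTB and the brighter ATP6 probe had 0.09 to 0.18. Prm2, the germ cell marker, read 55521 to 67433 on control arrays and 64618 to 72515 on high arrays, which overlap. The adipose marker that could be measured, Fabp4 (1 of 5 on its list), read 17 to 116 on control arrays and 120 to 165 on high arrays of testis. These do not overlap, but 116 and 120 are close. All of them lie below the noise SD of 175 to 218 that the background correction estimated on the kidney arrays. A second estimate on those arrays, from central detection scores, was 20 to 28, and the high readings lie above it. Neither estimate was made on testis arrays. The part of Fabp4 in the high result was not tested.

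The dimmer COX2 probe read 7031, 6593 and 7318 on the control arrays of testis and 8696, 7965 and 8195 on the low arrays. It read 10087, 11042 and 10361 on the mid arrays and 11138, 9297 and 9824 on the high arrays. Each irradiated group was above control without overlap, and mid and high were above low without overlap, while mid and high overlapped each other. The differences from control were 0.31 ± 0.13 (low, adjusted p = 1), 0.67 ± 0.13 (mid, adjusted p = 0.143) and 0.62 ± 0.13 (high, adjusted p = 0.270).

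The brighter COX2 probe was also lowest in the control group of testis. It read 14487, 15147 and 15893 (control), 18346, 15800 and 17795 (low), 20807, 19856 and 17920 (mid), and 19337, 19932 and 21337 (high). The mid and high arrays were above all control arrays, and 1 low array lay below the highest control array. On normalized values the low arrays were also above all control arrays. The differences from control were 0.26 ± 0.14 (low), 0.44 ± 0.14 (mid, adjusted p = 0.434) and 0.50 ± 0.14 (high, adjusted p = 0.309).

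COX1 in testis was high in the high group alone. It read 11512, 9428 and 9951 (control), 12727, 10183 and 11136 (low), 11404, 10910 and 9589 (mid), and 13336, 13404 and 14361 (high). The 3 high arrays were above the 9 others, and the other groups overlapped. The differences from control were 0.20 ± 0.14 (low), 0.13 ± 0.14 (mid) and 0.51 ± 0.14 (high, adjusted p = 0.320).

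COX3 in testis read 49715, 46154 and 45557 (control), 48539, 42173 and 45338 (low), 48216, 50244 and 44007 (mid), and 49115, 52272 and 54690 (high). The lowest high array was below the highest control array, so these groups overlapped on deposited signals. Their normalized values did not overlap. The differences were 0.04 ± 0.11, 0.10 ± 0.11 and 0.15 ± 0.11 for low, mid and high. The low difference was -0.06 on deposited signals, and the mid difference -0.03 under median scaling.

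The brighter CYTB probe read 40078, 35717 and 38427 (control), 40239, 35800 and 42751 (low), 38190, 41243 and 41047 (mid), and 41192, 44197 and 47787 (high). On deposited signals only the high group was above control without overlap, and on normalized values the mid group was as well. The differences were 0.14 ± 0.12, 0.18 ± 0.12 and 0.29 ± 0.12 for low, mid and high (adjusted p = 0.480 for high). The dimmer CYTB probe ranged from 19423 to 24494 over the 9 arrays of the control, low and mid groups and from 24812 to 28464 in the high group. Its difference was 0.32 ± 0.15 in the high group (adjusted p = 0.524).

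ATP8 in testis read 7275, 6396 and 7859 (control), 7963, 7404 and 7320 (low), 9665, 9677 and 8278 (mid), and 9470, 8635 and 10504 (high). All arrays of the mid and high groups were above those of the control and low groups. The differences were 0.15 ± 0.15 (low), 0.43 ± 0.15 (mid, adjusted p = 0.513) and 0.50 ± 0.15 (high, adjusted p = 0.349).

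The brighter ATP6 probe in testis read 40164, 37462 and 37474 (control), 41246, 36380 and 38681 (low), 38604, 39334 and 36908 (mid), and 38829, 44288 and 46849 (high). The deposited signals of the groups overlapped, although on normalized values each irradiated group was above control. The differences were 0.11 ± 0.11 (low), 0.11 ± 0.11 (mid) and 0.24 ± 0.11 (high). The dimmer ATP6 probe ranged from 17545 to 18836 in the control group, 19088 to 20596 in the low, 23020 to 28245 in the mid and 24751 to 25808 in the high group. Each irradiated group was above control without overlap for this probe. Its differences were 0.21 ± 0.12, 0.59 ± 0.12 (adjusted p = 0.174) and 0.57 ± 0.12 (adjusted p = 0.280) for low, mid and high.

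**Figure D2:**
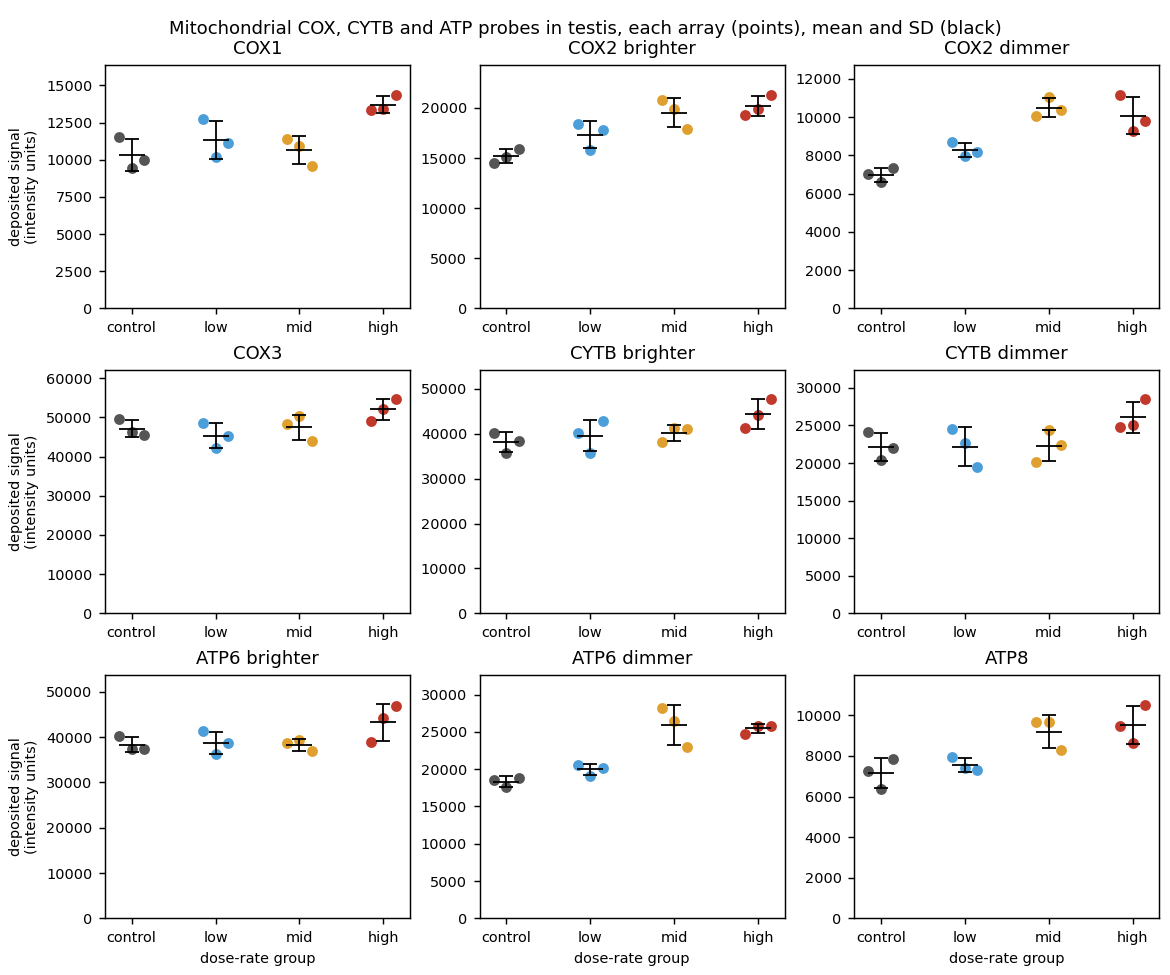
Deposited testis signal (intensity units, linear axis from 0) of each probe by dose-rate group, with single arrays as points and the mean and SD of 3 arrays in black. COX1 and the dimmer CYTB probe stand apart in the high group alone, while both COX2 probes, ATP8 and the dimmer ATP6 probe are above control in the mid and high groups.

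Deposited testis signals were above control without overlap for 2 of 9 members in the low group, 4 of 9 in the mid and 7 of 9 in the high group. Of all testis probes tested, 4.63%, 7.38% and 6.77% were. On normalized values the counts were 4, 6 and 9 of 9, with 4.38%, 7.23% and 7.84% of all probes. The 2 members whose deposited signals overlapped control in the high group were COX3 and the brighter ATP6 probe. The median of the 9 log2 differences was 0.15 (low), 0.18 (mid) and 0.50 (high), and 0.00, -0.02 and 0.00 over all 28816 probes. Under median scaling the medians were 0.05, 0.04 and 0.35 (all probes -0.05, -0.06 and -0.10), with 6, 6 and 9 of 9 members above 0, where 43.6%, 43.4% and 41% of all probes were. Before adjustment, 1, 4 and 6 of 9 members had p under 0.05, where 4.36%, 7.73% and 9.69% of all probes did. No member was called, where 0.0174% (low), 0.0521% (mid) and 0.0174% (high) of probes were called, nor by the F test (0.0902%), where 5 of 9 had p under 0.05 before adjustment (9.02%). In simulated testis data of the same spread, 0% of probes changed by 0.5 on the log2 scale and 17% of those changed by 1 were called. The changed probes were drawn at random from all 28816, so these rates are not those of the bright member probes. Among the unchanged probes 2 were called.

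The number of called testis members depended on how the variance was modelled. The fit used throughout had 1 prior variance for all 28816 probes. When the prior variance was allowed to follow the signal level, with robust estimation, 4 of 9 members were called in the mid group (0.75% of all probes) and 7 of 9 in the high group (1.19% of all probes). The log2 differences themselves did not change, but the SEs of the 9 members were 0.05 to 0.08 in that fit. Each was smaller than the SE given above, which draws on the prior variance over all 28816 probes. In the mid group the called members were both COX2 probes (adjusted p = 3.14e-05 and 2.24e-09), the dimmer ATP6 probe (3.76e-10) and ATP8 (0.000857). In the high group COX1 (adjusted p = 1.49e-05), the brighter CYTB probe (0.00109) and the brighter ATP6 probe (0.00799) joined them. COX3 (0.170) and the dimmer CYTB probe (0.0560) were not called there. No member was called in the low group by either fit. The F test called 7 of 9 in that fit (2.15% of all probes).

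**Figure D3:**
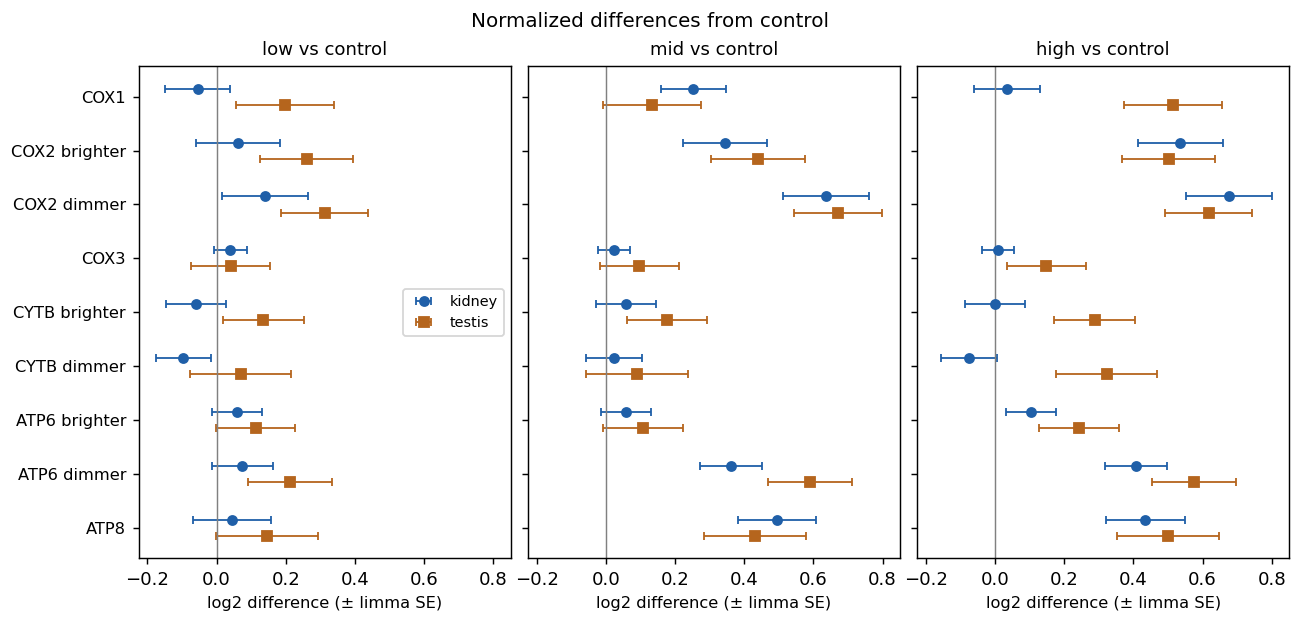
Log2 difference from control (horizontal axis, ± limma SE) of each probe in kidney (circles) and testis (squares) for the low, mid and high groups. COX2, ATP8 and the dimmer ATP6 probe lie to the right of 0 in both tissues in the mid and high groups, while in the high group COX1 and CYTB lie to the right in testis and near 0 in kidney.

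Whether kidney and testis differed was tested as the difference between both tissues' log2 differences from control, over 21845 probes. No member was called at any dose rate, where 0% (low), 0.00916% (mid) and 0.00916% (high) of probes were called. The widest gap was COX1 in the high group, with kidney minus testis at -0.48 ± 0.19 (limma, adjusted p = 0.457), followed by the dimmer CYTB probe at -0.40 ± 0.18 (adjusted p = 0.548). For the dimmer COX2 probe the gap was 0.05 ± 0.19 in the high group and -0.04 ± 0.19 in the mid group. Before adjustment 2 of 9 members had p under 0.05 in the high group (8.84% of all probes) and 0 of 9 in the others (5.29% in low and 6.87% in mid). Under median scaling the gap was -0.27 for COX1 and -0.08 for the dimmer CYTB probe. It changed sign for COX3 (from -0.14 to 0.15) and the brighter ATP6 probe (from -0.13 to 0.14), so its size depended on the scaling. All 24 arrays entered that fit as separate samples, although a mouse may have given an array of each tissue.

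Probes of the same gene did not always move alike, which shows how far a gene's value depends on the probe that reads it. On deposited signals the log2 ratio of the dimmer to the brighter ATP6 probe in testis was -1.11, -1.09 and -0.99 on the control arrays and averaged -0.96 ± 0.04 (SD, n = 3) on the low arrays. It was -0.45, -0.57 and -0.68 on the mid arrays and -0.65, -0.78 and -0.86 on the high arrays. The mid and high arrays were all above the control and low arrays. In kidney the same ratio averaged -0.93 ± 0.11 (control), -0.98 ± 0.04 (low), -0.83 ± 0.08 (mid) and -0.76 ± 0.03 (high; SD, n = 3). There the high group was above control without overlap, and the mid group overlapped control. The ratios within an array show that the readings of both probes changed unequally, not which of them was unchanged. An exact permutation test of 3 arrays against 3 cannot give a p below 0.1, so these ratios are given without one.

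The COX2 ratio averaged -1.17 ± 0.17, -1.06 ± 0.13, -0.86 ± 0.10 and -1.01 ± 0.04 in kidney (control, low, mid, high) and -1.12 ± 0.08, -1.06 ± 0.07, -0.89 ± 0.13 and -1.01 ± 0.18 in testis. The mid group was above control without overlap in kidney alone, and the high group overlapped control in both tissues. The CYTB pair ranged over group means of -0.17 to -0.10 in kidney and -0.85 to -0.77 in testis, with overlap among the groups of each tissue.

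**Figure D4:**
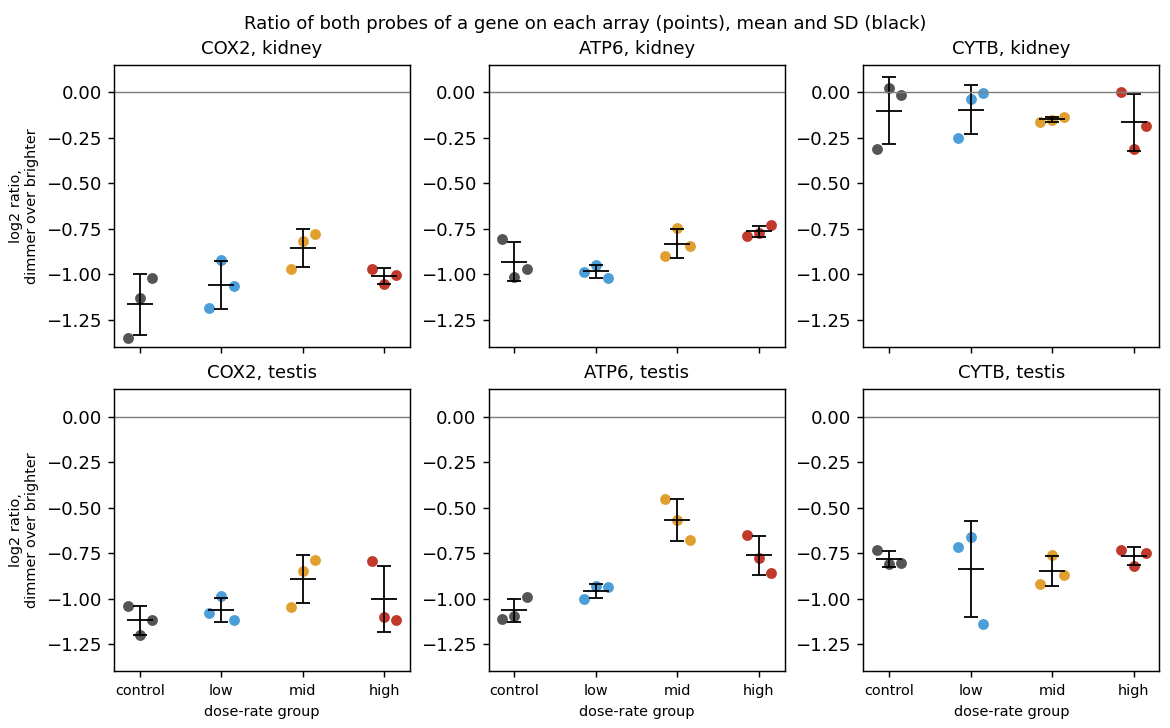
Log2 ratio of the dimmer to the brighter probe of COX2, ATP6 and CYTB on each array (points), with the mean and SD of 3 arrays in black, for kidney (top) and testis (bottom). The ATP6 ratio in testis is higher in the mid and high groups than in the control and low groups, and the CYTB ratio overlaps across groups in both tissues.

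The choice of scaling moved the size of the differences. In the kidney mid group the median-scaled differences were 0.46 for the dimmer COX2 probe, 0.30 for ATP8 and 0.15 for the brighter COX2 and the dimmer ATP6 probe, against normalized values of 0.64, 0.49, 0.35 and 0.36. In the testis high group they were 0.47 for the dimmer COX2 probe, 0.35 for COX1 and 0.08 for COX3, against 0.62, 0.51 and 0.15. COX1, COX2, ATP8 and the dimmer ATP6 probe stayed above 0 in the mid and high groups of both tissues under all 3 scalings. For COX1 this includes values smaller than their SE, such as 0.03 ± 0.09 in the normalized kidney high group, so its sign there is not settled. CYTB, COX3 and the brighter ATP6 probe changed sign between scalings in at least 1 of those 4 comparisons.

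**Figure D5:**
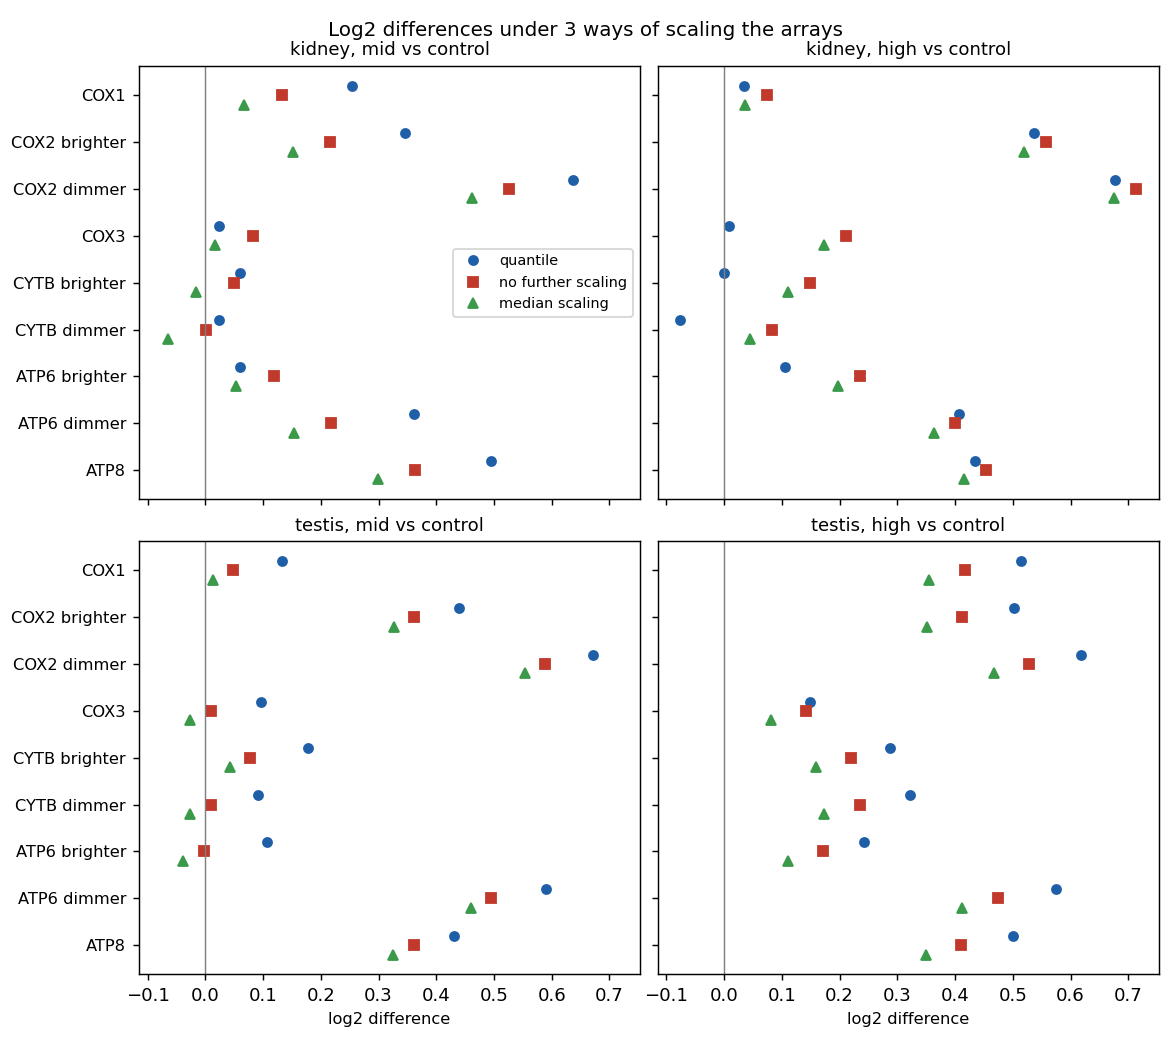
Log2 differences from control of each probe in the mid and high groups (columns) of kidney (top) and testis (bottom) after quantile normalization (circles), with no further scaling (squares) and after median scaling (triangles). COX1, COX2, ATP8 and the dimmer ATP6 probe stay to the right of 0 throughout, while CYTB, COX3 and the brighter ATP6 probe fall on both sides of 0. COX1 lies close to 0 in the kidney high group after quantile normalization.

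Over the 12 arrays of a tissue, the brightest member, COX3, had low correlations with the others in kidney. The probes with a gene symbol outside the 6 genes whose normalized values were most like it there were 3110040M04Rik (Pearson r = 0.78), Zfp777 (0.74) and Zfp58 (0.68). In testis they were Ankrd27 (0.95), D630045J12Rik (0.86) and Pspc1 (0.85). These correlations are descriptions over 12 arrays that share groups and normalization, and in kidney they rest on the small differences left among the brightest ranks. The r of COX3 with the other members was -0.37 to 0.25 in kidney and 0.63 to 0.86 in testis. The dimmer COX2 probe, looked at after its values were seen, correlated in kidney with the dimmer ATP6 probe (0.94), ATP8 (0.93) and the brighter COX2 probe (0.91). Its r with the remaining members there ran from 0.10 (COX3) to 0.56 (COX1). In testis the values for the same probes were 0.94, 0.89 and 0.87, and the remaining members ran from 0.56 to 0.74. The probe most like it in testis was that of Fasn (0.94), outside the 6 genes.

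Of the nuclear genes whose products form or assemble the same complexes, 29 were tested in kidney, and 1 was called in the mid group and 1 in the high group, where 0.312% and 0.504% of all probes were called. In testis 0 of 30 were called. Of the nuclear COX subunits, 10 of 19 listed symbols were on the array, and none was called in kidney (10 tested) or testis (9 tested). Their median difference in the high group was 0.10 in kidney and 0.11 in testis. Cox6c, a small subunit of complex IV, was at 0.34 ± 0.14 in the mid group and 0.37 ± 0.14 in the high group of kidney (adjusted p = 0.310 and 0.304). Of 8 COX assembly genes on the array, 5 were tested in kidney and 7 in testis, and none was called against control. Cox15, which makes the heme a of complex IV, was at -0.40 ± 0.10 in the kidney high group (adjusted p = 0.116), and it was higher in the mid than in the low group by 0.52 ± 0.10 (limma, adjusted p = 0.0486).

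Of the 6 nuclear complex III genes on the array, 1 was called in kidney. Uqcrb, a small subunit of complex III, rose by 0.97 ± 0.15 in the mid group (limma, adjusted p = 0.0488) and by 1.06 ± 0.15 in the high group (adjusted p = 0.0214). In testis it was at 0.66 ± 0.18 in the mid group (adjusted p = 0.304) and 0.31 ± 0.18 in the high group. The median of the 6 was -0.04 in the mid and 0.07 in the high group of kidney. Of the 8 nuclear ATP synthase genes, none was called, with medians of -0.08 (mid) and 0.02 (high) in kidney and -0.06 and 0.05 in testis. Atpif1, an inhibitor of the enzyme, was at -0.34 ± 0.11 in the kidney mid group (adjusted p = 0.213).

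Genes that transcribe and maintain mitochondrial DNA had no called member. Of 11 on the array, 7 were tested in kidney with none called, and their median differences were -0.18 (mid) and -0.06 (high). In testis 9 were tested with none called, and the medians were 0.01 and -0.05. Ppargc1b, a coactivator of mitochondrial gene expression, was at -0.18 ± 0.05 in the kidney mid group (adjusted p = 0.190).

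The other mRNAs of mitochondrial DNA encode complex I subunits. All 7 complex I genes of the mitochondrial genome were measured. With 1 probe per gene, 7 of 7 were above control in the kidney mid group and 6 of 7 in the high group. Of all kidney probes, 47.4% and 48.8% were. Over the 11 complex I probes tested in kidney, 10 (mid) and 9 (high) were above control. In each of these groups 2 of the 11 were called, where 0.312% (mid) and 0.504% (high) of all probes were. ND4L rose in kidney by 1.39 ± 0.12 (mid, adjusted p = 0.00320) and 0.81 ± 0.12 (high, adjusted p = 0.0236), and ND3 rose by 1.17 ± 0.20 in the high group (adjusted p = 0.0354). In the mid group ND3 was at 1.07 ± 0.20 and was not called (limma, adjusted p = 0.0586). The other probe called in the mid group was an additional probe of a complex I gene, which is not named here. In testis 6 of 7 were above control in the mid and high groups with none called, where 47.6% and 49.7% of all probes were above control. Over the 12 complex I probes tested there, 10 (mid) and 11 (high) were above control. ND3 in testis was at 2.68 ± 0.39 in the mid group (adjusted p = 0.0662) and 2.60 ± 0.39 in the high group (adjusted p = 0.125). The median over the 7 genes was 0.46 (mid) and 0.13 (high) in kidney after quantile normalization.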

How the data were processed

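Kidney signals are an intensity on a linear scale, normalized by rank-invariant genes and background-subtracted by the authors in BeadStudio 1.5.0.34, per the file headers. A detection score, a fraction from 0 to 1, and the number of beads with their SD were deposited beside each signal, and 11 other per-sample columns were not used. Testis signals are the intensity values of the deposited value table, whose normalization by the authors is not stated in the sources. RNA was amplified and labelled with biotin, per the labels.

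All fits used limma 3.58.1 under R 4.3.3. Kidney signals went through neqc with detection scores (offset 16), which corrects background, applies quantile normalization and takes log2. Probes with a score above 0.99 on at least 3 arrays were kept (10903). Testis signals were floored at 16, put on a log2 scale and quantile normalized, and probes above their array's median on at least 3 arrays were kept (28816). The lowest member signal was 6396, far above the floor and the neqc noise SD of 175 to 218, and the number of arrays limits the precision. All 12 arrays of a tissue entered 1 fit of 4 groups. Differences were tested two-sided with moderated statistics, Benjamini-Hochberg adjusted over all probes tested and called under 0.05. Errors beside log2 differences are limma SEs. These and the p-values combine a probe's spread among these arrays with a prior variance estimated over all probes tested. No 2 arrays held identical values. The fit was checked on simulated kidney data, where it called 66% of probes changed by 0.5 on the log2 scale and 93% of those changed by 1. The changed probes were drawn at random from all 10903, and 12 unchanged probes were called.

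Full values are given for members called and for the brightest probe of each gene, and of other lists for called genes and up to 3 of lowest p. Alternatives covered background correction, scaling, filter, floor, variance model, samples in the fit, replicate block, averaging of probes, threshold and each array left out. The members, lists and tests were chosen with earlier results of these data known. No probe or mitochondrial sequence was used here.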

Additional observations from a re-analysis of the deposited data

How the results depend on the processing

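No called difference of a member changed sign under any alternative. In kidney, the count of called members for high against control was 1 of 9, and it fell to 0 with noise taken from central detection scores, with no further background correction, under median scaling, without the filter, with only both groups compared, with probes of a gene averaged, and with 3 arrays of lowest correlation left out. It stayed at 1 on deposited signals with no further scaling (0.523% of all probes). With the replicate number of the titles as a block it was also 0 (adjusted p = 0.0530 for the dimmer COX2 probe). The block changed no other count. The 13 same-numbered pairs of kidney arrays correlated at -0.17 to 0.47 in their deviations, with 10 over 0.1, and 11 of 41 pairs with different numbers were over 0.1 (-0.49 to 0.54). Of the 12 arrays, 7 correlated best with one of their own number. This is a hint from the data that same-numbered arrays are more alike, but not every pair exceeded 0.1 and no label ties a number to a shared batch, so the pairing was not adopted. With trend and robust variances the count was 2 for high against control and 1 for mid against control (0.761% and 0.339% of all probes). In that fit it was 1 for high against low and 2 for the F test (1.13% and 1.26% of all probes). With a call at a 1.5-fold change and unadjusted p under 0.05 it was 1 for mid against control (1.1% of all probes). Leaving out the 3 arrays of lowest correlation, chosen after seeing the data, gave 1 for mid against control, 1 for mid against low and 1 for the F test (1.9%, 1.85% and 1.96% of all probes). With each array left out in turn, the count ran from 0 to 3 for high against control, where 11 of 12 settings gave 0 and leaving out high replicate 1 gave 3. It ran from 0 to 1 for mid against control and for high against low, from 0 to 2 for the F test, and stayed at 0 for the other kidney comparisons. Over all probes, these settings called 2 to 200 for high against control and 1 to 103 for mid against control. They called 1 to 215 for high against low and 3 to 242 for the F test.

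In testis, counts of 0 became 2 (mid) and 2 (F test) without the filter, where 0.091% and 0.152% of all probes were called. They became 4 (mid), 7 (high) and 7 (F test) with trend and robust variances (0.75%, 1.19% and 2.15% of all probes). With a call at a 1.5-fold change and unadjusted p under 0.05 they were 2 (mid) and 1 (high), where 5.93% and 6.57% of all probes were called. Every array left out in turn kept the testis and tissue counts at 0. Over all probes, 55 were called for high against control in kidney and 0 to 231 under the alternatives, or 2 to 200 with an array left out. In testis the 5 called for high against control became 343 with trend and robust variances. The scalings moved the median of all probes by under 0.1 on the log2 scale. The very bright kidney probes (COX3, CYTB and the brighter ATP6 probe) are read close to the top of the scale, where rank-based normalization limits what can be seen. With trend and robust variances the log2 differences of the testis members stayed the same and their SEs were smaller. Why the calls otherwise depend on these settings was not tested.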
